A study of Mus musculus with 9 samples.

Results

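The amino acid transporters of activated T cells were followed in CD8+ T cells that were being primed into IL-17-producing Tc17 cells. They are 9 genes, chosen by name: Slc7a5, Slc3a2, Slc1a5, Slc1a4, Slc38a1, Slc38a2, Slc7a1, Slc7a6 and Slc43a1. Each has 1 row in the table of 41388 genes, and all 9 were among the 11599 genes that averaged 10 or more normalized reads and entered the tests. RNA-Seq was done on 9 libraries of murine Tc17 cells, 3 in each of 3 groups, to see what dimethyl fumarate (DMF) does to these cells and how much of it is undone by glutathione (GSH).

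Naive CD62L+CD44-CD8+ cells from lymph nodes and spleens of C57BL/6 mice were primed for 2 days in all 3 groups. The culture held plate-bound anti-CD3 (5 µg per ml), anti-CD28 (0.5 µg per ml), IL-2 (50 U per ml), TGF-β (0.5 ng per ml), IL-6 (30 ng per ml) and anti-IFN-γ (5 µg per ml). Ctrl cells received 0.2% DMSO, DMF cells 20 µM DMF, and DMF + GSH cells 20 µM DMF with 50 µM GSH. The solvent content of both DMF groups was not given in the sources used here, and there was no group with GSH alone. DMF is a fumaric acid ester that reacts with thiols, GSH among them. Replicate 1 of each group was prepared in batch 1, and replicates 2 and 3 in batch 2. The study states for its experiments in general that at least 3 independent biological replicates were used. The labels do not say that these replicates came from separate animals or cultures, so p-values measure the spread between these libraries only.

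A T cell that is activated takes up far more amino acids than a resting one, since it builds protein and nucleotides before it divides. The main exchanger for large neutral amino acids such as leucine is a pair of proteins, the light chain LAT1 (Slc7a5) and the heavy chain CD98 (Slc3a2), which carries its partner to the cell surface. Slc1a5 encodes ASCT2, an exchanger of neutral amino acids that is known for glutamine, and the supply of leucine and glutamine is sensed at the lysosome by mTORC1.

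The genes are protein-coding and lie apart from each other in the genome (GRCm38, GENCODE vM21), apart from Slc38a1 and Slc38a2, which are neighbours on the minus strand of chromosome 15. The transporter of large neutral amino acids Slc7a5 lies at chr8:121881150-121907694 on the minus strand, and its heavy chain Slc3a2 at chr19:8706882-8723369, also minus. Slc7a6, which encodes y+LAT2, another light chain that pairs with CD98, lies at chr8:106168857-106198706 (plus), and Slc43a1, which encodes LAT3, a uniporter of branched-chain amino acids that needs no heavy chain, at chr2:84838850-84863594 (plus). Of the sodium-dependent neutral amino acid transporters, Slc1a5 lies at chr7:16781340-16798274 (plus) and Slc1a4, which encodes ASCT1, at chr11:20302180-20332713 (minus). Slc38a1 (SNAT1) at chr15:96571418-96642913 and Slc38a2 (SNAT2) at chr15:96687392-96699730 encode transporters that load the cell with glutamine and alanine. The cationic amino acid transporter Slc7a1 (CAT1), which carries arginine and lysine, lies at chr5:148327410-148399904 (minus).

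The depth, taken as the sum of the reads recovered from the normalized values, was 7671772 to 14511926 reads per library, and Ctrl replicate 3 was the shallowest. The least covered of the 9 genes, Slc43a1, rested on 92 to 185 reads per library and Slc1a4 on 133 to 407, whereas the other 7 had at least 778 reads in each library. Cd3e, Cd3d, Cd3g, Cd8a, Cd8b1 and Trac summed to 24976 to 30333 normalized reads in Ctrl, 24825 to 29943 with DMF and 25032 to 32201 with DMF + GSH, and Cd4 had at most 4.40. Il17a was found in each library, at 269 to 504 in Ctrl and 31.7 to 146 with DMF. The 5 myeloid markers (Lyz2, Csf1r, Cd14, Cd68 and Adgre1, which has no row) summed to 71.7 to 264 in Ctrl, 54.0 to 70.2 with DMF and 80.7 to 88.3 with DMF + GSH. The upper end was Ctrl replicate 3, in which Lyz2 reached 119 against 0 and 4.64 in the other Ctrl libraries. The CD4 T cell markers Cd4 and Zbtb7b summed to 41.8 to 86.5 over all libraries. Markers of B cells summed to 58.1 to 92.0 over all libraries, the NK cell markers Ncr1 and Klrb1c to at most 4.16, and the 4 globin genes were at 0. The γδ T cell marker Trdc has no row, so γδ T cells were not assessed. Whether other cells contributed to the transporter values was not tested. In bulk RNA, fewer cells of a type and less RNA per cell cannot be told apart.

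With DMF, 5 of the 9 transporters rose (adjusted p under 0.05 in limma with batch in the model), where 28.0% of all genes tested passed in either direction and 14.6% were higher. They were both chains of the LAT1-CD98 exchanger, both ASCT genes and the arginine and lysine transporter Slc7a1. None of the 9 fell, and Slc38a1, Slc38a2, Slc7a6 and Slc43a1 did not pass. Since the 9 were picked by name with earlier results known, 5 of 9 beside 14.6% is a description of these genes.

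Slc7a5 had 2546, 2390 and 4138 normalized reads in Ctrl replicates 1 to 3, 5694, 4911 and 6342 with DMF and 2604, 2460 and 4055 in the DMF + GSH libraries. Each DMF library was above each library of both other groups, and replicate 3 was the highest of its group in all 3 groups. The means were 3025 ± 967 (SD, n = 3) in Ctrl and 5649 ± 717 (SD, n = 3) with DMF, a log2 fold change of 0.94 ± 0.222 (SE) with an adjusted p of 0.0150 (limma). This log2 fold change was above that of 98.3% of the genes tested, where genes that fell count as below it whatever their size. By replicate number it was 1.16, 1.04 and 0.62 on the log2 scale, so that the batch 2 mean was 0.83 beside 1.16 for the single pair of batch 1.

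Its heavy chain Slc3a2 had 2170, 1561 and 2223 normalized reads in Ctrl, 3154, 2705 and 3197 with DMF and 1942, 1716 and 2390 in the DMF + GSH libraries. Here, too, each DMF library exceeded the other 6 libraries. The mean went from 1984 ± 368 to 3019 ± 272 (SD, n = 3), with a log2 fold change of 0.62 ± 0.152 (SE) and an adjusted p of 0.0169 (limma). The batch 1 pair gave 0.54 and batch 2 a mean of 0.66.

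The glutamine exchanger Slc1a5 was the steadiest of the transporters, with 4654, 4634 and 4650 normalized reads in Ctrl, a coefficient of variation of 0.221%. These libraries held 3270 to 4989 reads of the gene, so counting error alone is larger than that. The coefficient was 3.13% with DMF and 3.31% with DMF + GSH. Slc1a5 had 5895, 5541 and 5770 with DMF and 4640, 4754 and 4952 in the DMF + GSH libraries, and the DMF libraries again stood above the other 6. The rise was the smallest among the 5 called, 0.30 ± 0.0600 (SE) on the log2 scale, yet had the lowest adjusted p of the 9, 0.00872 (limma). The differences by batch were 0.34 and 0.28.

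Its relative Slc1a4 was expressed at a far lower level and varied most between the Ctrl libraries (coefficient of variation 37.0%). It had 138, 176 and 280 normalized reads in Ctrl, 250, 306 and 394 with DMF and 209, 203 and 306 in the DMF + GSH libraries. The Ctrl and DMF groups overlapped, since Ctrl replicate 3 was above DMF replicate 1, but DMF was higher within each replicate number, by 0.85, 0.79 and 0.49 on the log2 scale. The log2 fold change was 0.71 ± 0.207 (SE) with an adjusted p of 0.0304 (limma), and without the batch term the adjusted p was 0.0672.

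The cationic amino acid transporter Slc7a1 had 2320, 2445 and 2983 normalized reads in Ctrl, 3849, 3148 and 3805 with DMF and 2494, 2394 and 2988 in the DMF + GSH libraries. All DMF libraries were above all others, and the mean rose from 2583 ± 353 to 3600 ± 393 (SD, n = 3), with a log2 fold change of 0.48 ± 0.122 (SE) and an adjusted p of 0.0186 (limma). The pair of batch 1 differed by 0.73 and those of batch 2 by a mean of 0.36.

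Slc7a6, the other light chain that pairs with CD98, had 963, 972 and 1187 normalized reads in Ctrl, 1326, 1114 and 1408 with DMF and 856, 976 and 1185 in the DMF + GSH libraries. DMF was higher within each replicate number, while the groups overlapped between numbers. The log2 fold change was 0.30 ± 0.128 (SE) with an adjusted p of 0.106 with batch in the model and 0.00250 with the replicate number as a block (limma), so that its call depends on the model. With batch in the model it was 0.19 without DMF replicate 1 and 0.43 without DMF replicate 2, where it was called (adjusted p 0.0213, limma).

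The remaining 3 transporters did not pass in either model. Slc38a1 lay at 4745 to 5389 normalized reads in Ctrl, 5183 to 5679 with DMF and 4738 to 5200.0 with DMF + GSH. Its log2 difference between DMF and Ctrl was 0.12 (95% interval -0.05 to 0.29), positive in all 3 numbers, with an adjusted p of 0.246 and, with the block, 0.0564 (limma). Slc38a2 lay between 2881 and 3290 in all libraries, and its difference of -0.04 had the narrowest bounds among these 3, -0.19 to 0.11. Slc43a1, at 97.3 to 163 normalized reads over all libraries, had a difference of 0.10 with bounds of -0.26 to 0.46, and its replicate numbers differed in sign.

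**Figure D1:**
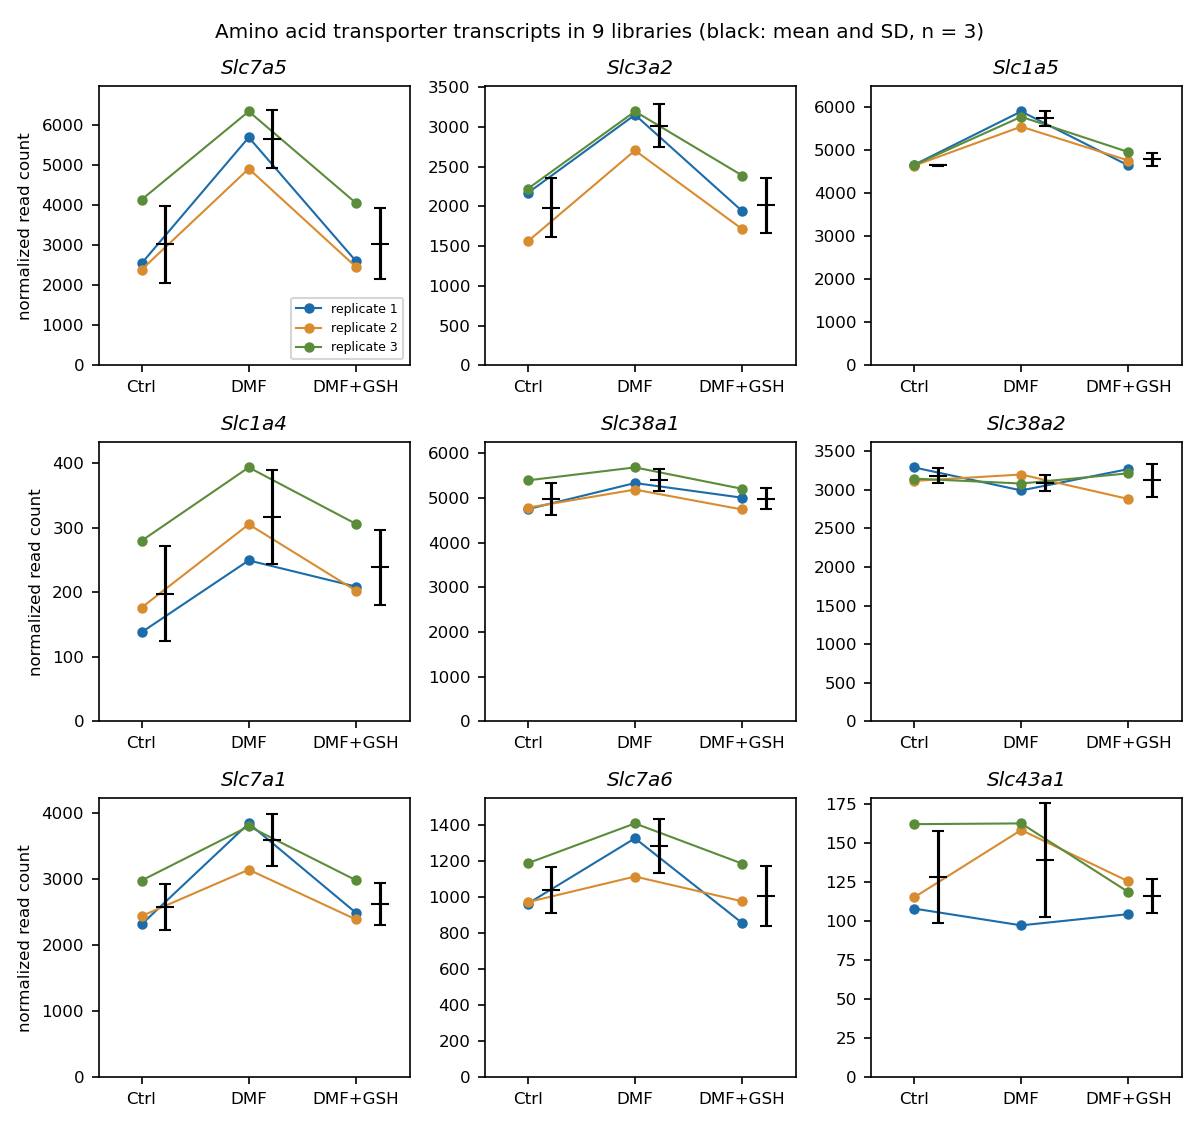
Normalized read count (y axis, from 0) of each of the 9 transporters in Ctrl, DMF and DMF + GSH (x axis), with 1 point per library, lines joining libraries of the same replicate number, and black marks for the mean and SD (n = 3). Slc7a5, Slc3a2, Slc1a5 and Slc7a1 peak in DMF without overlap with the other groups, Slc38a2 stays between 2881 and 3290, and replicate 3 runs above the others in Slc7a5 and Slc1a4.

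Counted without a model, 4 of the 9 (Slc7a5, Slc3a2, Slc1a5 and Slc7a1) had every DMF library above every Ctrl library, as did 21.6% of all genes tested. In addition, 7 of the 9, that is all but Slc38a2 and Slc43a1, were higher with DMF within each of the 3 replicate numbers, as were 34.3% of all genes. The stricter threshold of the study was an adjusted p under 0.01 with a log2 fold change of 0.75 or more in either direction. In limma, edgeR and DESeq2, 0 of the 9 passed it, beside 335 (2.89%), 338 and 551 of the 11599 genes. In limma, 6 of the 9 had an unadjusted p under 0.05, as did 41.5% of the genes. With the replicate block, 1 transporter passed the stricter threshold, Slc7a5 (adjusted p 2.56e-08, limma), beside 6.80% of the genes. At the adjusted p of 0.05, the block called 6 of the 9, the sixth being Slc7a6, beside 45.0% of the genes.

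The number of transporters called with batch in the model depended on single libraries. It was 0 without Ctrl replicate 1 or DMF replicate 1, and 1, Slc1a5, without Ctrl replicate 2 or DMF replicate 3. The count over all genes also fell in these fits, from 3242 to 628, 110, 1162 and 953. The log2 fold change of Slc7a5 stayed between 0.74 and 1.18 over the fits with 1 of the 9 libraries left out. Without Ctrl replicate 3, the library with the high Lyz2, 5 transporters were called, beside 3789 of all genes, and Slc7a5 differed by 1.18 (adjusted p 0.00466) and Slc3a2 by 0.73 (adjusted p 0.00905, limma). In that fit Slc1a4 differed by 0.93 (adjusted p 0.00712), Slc7a1 by 0.59 (adjusted p 0.00759) and Slc1a5 by 0.30 (adjusted p 0.0113), and Slc7a5 and Slc1a4 passed the stricter threshold, as did 680 of the 11599 genes. With the replicate block, 6 or 7 were called whichever library was left out, in fits that called 4102 to 5466 of all genes.

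When GSH was added to DMF, 4 of the 9 fell against DMF alone: Slc7a5, Slc3a2, Slc1a5 and Slc7a1. Among all genes tested 22.3% passed in either direction and 12.4% were lower. The mean of Slc7a5 was 3039 ± 882 with DMF + GSH (SD, n = 3), a log2 difference from DMF of -0.92 ± 0.222 (SE; adjusted p 0.0196). For Slc3a2 the mean was 2016 ± 343 and the difference -0.59 ± 0.152 (SE; adjusted p 0.0245). Slc1a5 differed by -0.26 ± 0.0600 (SE; adjusted p 0.0169) and Slc7a1 by -0.46 ± 0.122 (SE; adjusted p 0.0281, all limma). In these 4 genes every library with GSH was below every library with DMF alone, as in 20.5% of all genes.

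Slc1a4, the fifth transporter that rose with DMF, did not pass in this comparison with batch in the model (-0.40 ± 0.207, SE; adjusted p 0.180), but did with the replicate block (adjusted p 0.00617). Its difference was -0.20 without DMF + GSH replicate 2 and -0.52 without DMF + GSH replicate 3. Slc7a6 differed by -0.36 (adjusted p 0.0708), also called with the block (adjusted p 0.000689, limma), which brought the count to 6, beside 41.5% of all genes. With batch in the model Slc7a6 was called when DMF replicate 2 (-0.49; adjusted p 0.0160) or DMF + GSH replicate 3 (-0.47; adjusted p 0.0251, limma) was left out. Slc38a1, Slc38a2 and Slc43a1 differed by -0.12, 0.01 and -0.23, with adjusted p-values of 0.277, 0.913 and 0.328. Slc38a1 was at -0.07 without DMF + GSH replicate 2, and Slc43a1 at -0.37 without DMF replicate 1 and, with the block, at -0.09 without DMF + GSH replicate 3. In 7 of the 9 genes, again all but Slc38a2 and Slc43a1, the value was lower with GSH within each replicate number, as in 33.4% of all genes. With batch in the model 0 of the 9 were called without DMF replicate 1, DMF replicate 3, DMF + GSH replicate 1 or DMF + GSH replicate 2, fits in which 10 to 143 of all genes were called. With the block 5 or 6 were called whichever library was left out, beside 3581 to 4873 of all genes.

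Between DMF + GSH and Ctrl, 0 of the 9 transporters and 0 of the 11599 genes (0.00%) passed in limma, edgeR and DESeq2. At an unadjusted p under 0.05 there were 222 genes (1.91%) and none of the 9 with batch in the model. With the block there were 599 genes (5.16%) and 1 of the 9, Slc1a4, and after adjustment the block called 4 genes (0.0345%), none of the 9. The model with batch leaves the spread between replicates 2 and 3 in its error, so its counts and intervals depend on that choice. The differences were 0.01 for Slc7a5 (95% interval -0.48 to 0.51), 0.03 for Slc3a2 (-0.31 to 0.37), 0.04 for Slc1a5 (-0.09 to 0.17) and 0.03 for Slc7a1 (-0.25 to 0.30). Slc1a4 had the largest, 0.31 (-0.15 to 0.77), and it was higher with DMF + GSH than in Ctrl within all 3 replicate numbers, as were 11.7% of all genes. Its value moved with single libraries, from 0.16 without Ctrl replicate 2 to 0.53 without Ctrl replicate 3, and it was 0.18 to 0.51 with 1 of the DMF + GSH libraries left out. Without Ctrl replicate 3, Slc7a5 was at 0.25 and Slc3a2 at 0.14. Slc1a5 was at 0.013 without DMF + GSH replicate 3 and at 0.073 without DMF + GSH replicate 1. With the block the unadjusted p of Slc1a4 was 0.0113 and its adjusted p 0.762. With batch in the model, the upper bounds for Slc7a5, Slc3a2, Slc1a5, Slc7a1 and Slc1a4 were 0.51, 0.37, 0.17, 0.30 and 0.77. They stand beside differences of 0.94, 0.62, 0.30, 0.48 and 0.71 between DMF and Ctrl. In that model a remaining difference is thus not closely bounded for any of the 5. With the block the 95% intervals were -0.15 to 0.18 for Slc7a5, -0.11 to 0.16 for Slc3a2 and -0.11 to 0.16 for Slc7a1. For Slc1a5 and Slc1a4 they were -0.06 to 0.15 and 0.08 to 0.54. The 3 comparisons share their libraries, so each group enters 2 of them, and the fall against DMF and the rise against Ctrl are not separate pieces of evidence.

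**Figure D2:**
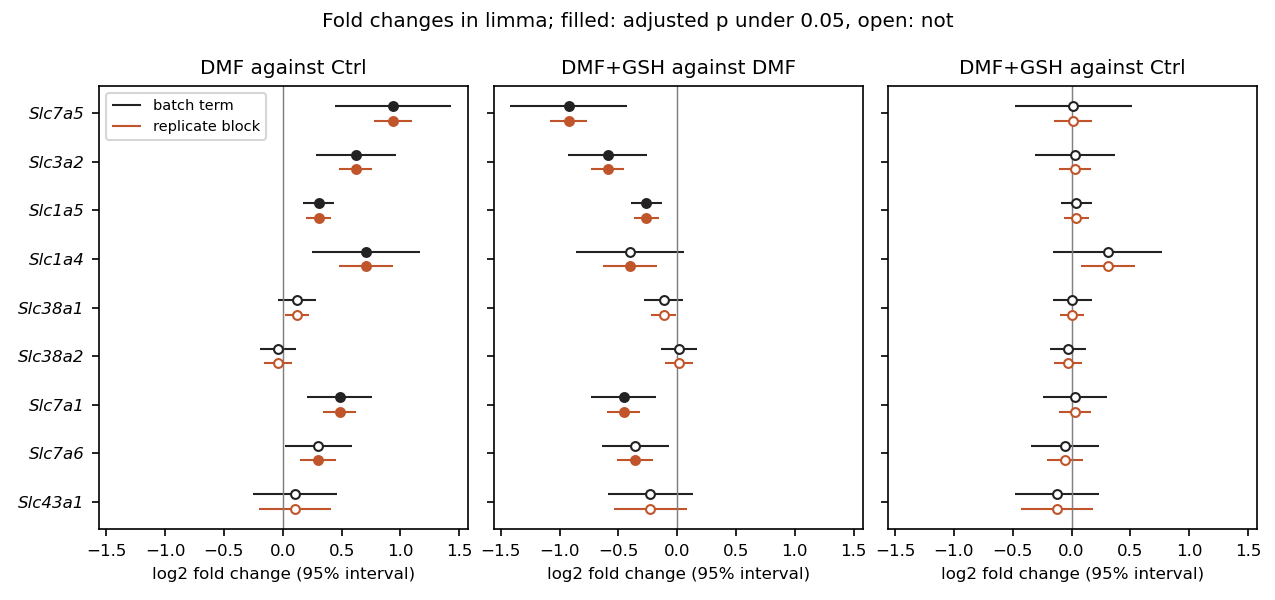
Log2 fold change (x axis) of each transporter (y axis) in the 3 comparisons, with 95% intervals from limma with batch in the model (black) and with the replicate number as a block (orange), filled where the adjusted p is under 0.05. DMF against Ctrl has 5 filled black points and 6 filled orange ones, DMF + GSH against DMF has 4 and 6, and DMF + GSH against Ctrl has 0 of either.

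Levels can be set beside each other only per length, here as normalized reads per kb of exon (union of the exons in GENCODE vM21). The union runs from 3529 bases for Slc3a2 to 17236 for Slc38a1. It takes in exons of all annotated transcripts, whether or not these cells use them, and the study counted reads with another annotation. The order between genes depends on these lengths. In Ctrl, Slc1a5 came first with 1113 ± 2.46 (SD, n = 3), followed by Slc7a5 with 816 ± 261, whose range reached that of Slc1a5 through replicate 3. Slc3a2 came next with 562 ± 104, and Slc38a2 and Slc38a1 followed at 360 ± 10.6 and 288 ± 21.0, each apart from its neighbours in the order. Slc7a6 (228 ± 27.8) and Slc7a1 (224 ± 30.6) overlapped. Slc1a4 (50.5 ± 18.7) and Slc43a1 (22.5 ± 5.14) were the lowest, and their ranges did not overlap.

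With DMF, Slc7a5 was the first of the 9 with 1523 ± 193 normalized reads per kb, above Slc1a5 with 1374 ± 43.0, though their ranges overlapped. Slc3a2 reached 855 ± 77.2. Slc7a1 moved to 312 ± 34.1, where it overlapped with Slc38a1 (313 ± 14.8) and Slc7a6 (281 ± 33.2). With DMF + GSH the order was that of Ctrl except for Slc7a1 and Slc7a6, which overlap, and Slc1a5 (1146 ± 37.9) was again above Slc7a5 (820 ± 238), this time without overlap.

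The light and heavy chain of the LAT1-CD98 exchanger can be related within each library. The ratio of Slc7a5 to Slc3a2 in normalized reads per kb was 1.12, 1.46 and 1.77 in Ctrl, 1.72, 1.73 and 1.89 with DMF and 1.28, 1.36 and 1.61 in the DMF + GSH libraries. The DMF libraries had the narrowest range and were above all with GSH, whereas Ctrl replicate 3 reached into their range. For Slc7a6, which shares the heavy chain, the ratio to Slc3a2 was 0.412 ± 0.0690 in Ctrl, 0.328 ± 0.0114 with DMF and 0.388 ± 0.0497 with DMF + GSH (SD, n = 3). Slc1a5 exceeded Slc1a4 24.0 ± 8.05 times in Ctrl, 17.7 ± 4.25 times with DMF and 19.4 ± 3.66 times with DMF + GSH. These ratios were not tested.

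**Figure D3:**
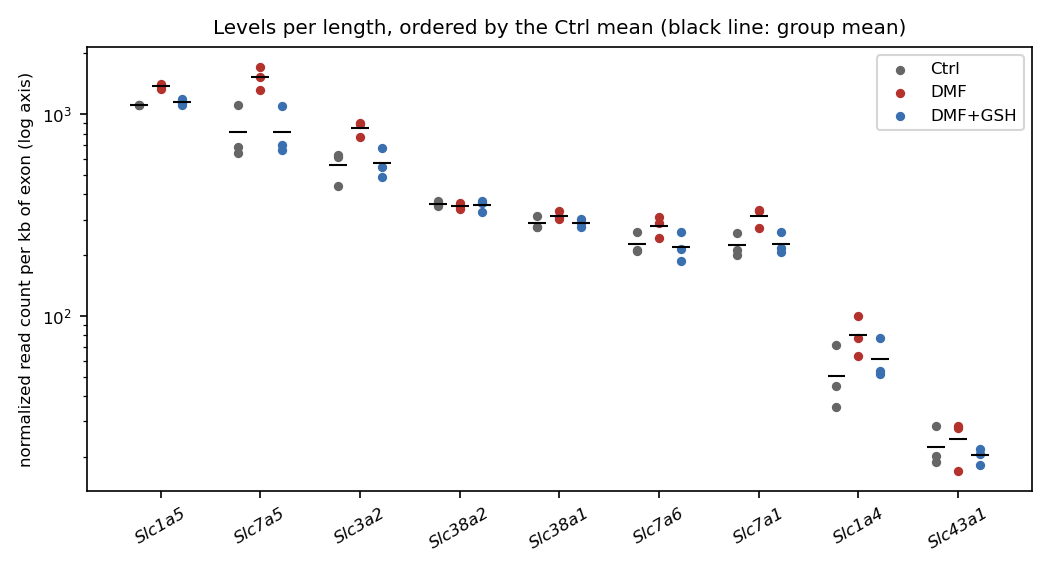
Normalized reads per kb of exon (y axis, log scale) of the 9 transporters, ordered by the Ctrl mean (x axis), with 1 point per library and a black line at each group mean. Slc1a5, Slc7a5 and Slc3a2 lead in all groups, the DMF mean of Slc7a5 (1523) is above that of Slc1a5 (1374), and Slc1a4 and Slc43a1 are the lowest.

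Part of the spread within groups followed the replicate number. Replicate 3 had the highest value in all 3 groups for Slc7a5, Slc3a2, Slc1a4, Slc38a1 and Slc7a6. On the log2 scale the means of the replicate numbers spanned 0.63 for Slc7a5, where the group means spanned 0.94, and 0.41 against 0.62 for Slc3a2. For Slc1a4 and Slc43a1 the numbers spanned more than the groups did, 0.74 against 0.71 and 0.50 against 0.23, and so they did, within narrower ranges, for Slc38a1 (0.15 against 0.12) and Slc38a2 (0.05 against 0.04). In Slc1a5 the numbers spanned 0.04 and the groups 0.30. The block takes this part of the spread out, and its standard error for Slc7a5 was 0.0767 where the batch term gave 0.222.

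RefSeq promoter windows (GRCm38.p6) were searched, since 5 of the transporters rose in the same comparison and since Slc7a5, Slc3a2 and others of this group are known targets of the amino acid response factor ATF4 or of MYC. Windows were found for 6 of the 9 genes (8 windows), and Slc7a5, Slc1a5 and Slc38a1 had none in the table. The 250 bases before the start were searched on both strands for the E-box CACGTG, the amino acid response element core TGATGNAA and the antioxidant response element TGACNNNGC, and these letter patterns do not overlap each other in the windows of the 6 genes. They occurred in 6.02%, 3.45% and 10.2% of the 32851 promoters. Shown are 3 windows that share at most 2 bases with an annotated exon of their gene: 2 of genes that rose, Slc1a4 and Slc7a1, and 1 of Slc38a2, which did not. All are on the minus strand and are written 5′ to 3′, with a match in capitals, at chr11:20332714-20332963 for Slc1a4, chr5:148399905-148400154 for Slc7a1 and chr15:96699729-96699978 for Slc38a2.
Slc1a4: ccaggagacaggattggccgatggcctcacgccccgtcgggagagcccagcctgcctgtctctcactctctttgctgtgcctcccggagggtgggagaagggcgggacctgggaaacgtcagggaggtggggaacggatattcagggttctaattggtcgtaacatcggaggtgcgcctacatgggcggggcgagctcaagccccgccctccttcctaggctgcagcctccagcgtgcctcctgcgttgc
Slc7a1: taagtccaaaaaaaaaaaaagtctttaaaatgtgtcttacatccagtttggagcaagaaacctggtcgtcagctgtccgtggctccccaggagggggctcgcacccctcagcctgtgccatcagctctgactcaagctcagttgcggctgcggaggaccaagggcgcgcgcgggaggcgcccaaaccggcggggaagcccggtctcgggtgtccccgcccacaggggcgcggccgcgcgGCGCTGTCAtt
Slc38a2: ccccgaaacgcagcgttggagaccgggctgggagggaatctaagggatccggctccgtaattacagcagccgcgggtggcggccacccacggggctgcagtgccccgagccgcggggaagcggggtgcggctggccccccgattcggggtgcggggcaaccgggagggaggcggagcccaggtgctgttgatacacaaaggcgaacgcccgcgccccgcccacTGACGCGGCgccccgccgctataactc
The window of Slc1a4 held none of the 3 patterns. Of the 2 windows of Slc7a1, the one shown held an antioxidant response element on the reverse strand, 11 to 3 bases before the start, and the other, at chr5:148392816-148393065 inside the annotated gene, held no match. The window of Slc38a2 held 1 on the forward strand, 27 to 19 bases before the start. Slc3a2 had no match in its window, and Slc43a1 had an E-box and an antioxidant response element, both in windows that lie inside the annotated gene. Slc7a6 had a match to the antioxidant response element in 1 of its 2 windows. The amino acid response element core was found in none of the 8. A match is a description of letters, and its absence says only that these letters are not in this window.

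The other amino acid transporters of the plasma membrane formed a list of 36 genes, of which 9 had a mean of at least 10. Of these, 3 were called higher with DMF and 2 lower, where 14.6% of all genes were higher and 13.3% lower, and with the block 3 and 3, beside 23.7% and 21.4% of all genes. The median log2 difference was 0.12, beside 0.30 for the 9 transporters above and 0.01 for all genes tested. The glycine transporter Slc6a9 rose from 22.1 ± 8.91 to 52.5 ± 3.30 normalized reads (SD, n = 3), by 1.29 on the log2 scale (adjusted p 0.0123), and was at 27.7 ± 9.67 with DMF + GSH. The cationic amino acid transporter Slc7a3, a relative of Slc7a1, rose from 46.9 ± 7.88 to 90.4 ± 30.7 (0.90; adjusted p 0.0246). Slc43a2, which encodes LAT4, a relative of the LAT3 of Slc43a1, moved in the other direction. It fell from 1554 ± 168 to 823 ± 109 normalized reads (-0.92; adjusted p 0.00276, limma) and was at 1397 ± 132 with DMF + GSH, higher than with DMF alone (0.77; adjusted p 0.00809). Slc7a5 and Slc43a2, which both carry large neutral amino acids, thus changed in opposite directions. The cystine transporter Slc7a11 was not tested, since it had 2.23 to 13.5 normalized reads per library, and it is named here after its values were seen.

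Inside the cell, 1 list held 9 lysosomal and another 11 mitochondrial amino acid transporters. Of the lysosomal list 8 were tested, 0 were called higher and 1 lower (2 with the block, which added Ctns, the lysosomal cystine exporter, at -0.44 and an adjusted p of 0.00980), with a median of -0.08. Over all genes 14.6% were higher and 13.3% lower, and with the block 23.7% and 21.4%, so that 1 of 8, or 2 of 8 with the block, is near the background. The 1 was Slc38a9, a lysosomal arginine sensor and transporter of the mTORC1 pathway, which fell from 311 ± 41.8 to 192 ± 36.7 normalized reads (SD, n = 3; -0.70, adjusted p 0.0150). Of 9 mitochondrial carriers tested, 4 were called higher and 1 lower, against the same background, with a median of 0.26, and the block gave the same counts, where 23.7% of all genes were higher and 21.4% lower. The ornithine carrier Slc25a15 (0.64; adjusted p 0.0295) and the glutamate carrier Slc25a22 (0.56; adjusted p 0.00567) rose, as did Sfxn1, a serine carrier (0.48; adjusted p 0.0318), while its relative Sfxn3 fell by 0.71 on the log2 scale (adjusted p 0.0172, limma).

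Of 25 genes that report amino acid supply to mTORC1, 3 were called higher and 5 lower with a median of 0.08, beside 14.6% and 13.3% of all genes, and with the block 6 were higher and 6 lower, beside 23.7% and 21.4%. The arginine sensor Castor1 (listed as Gatsl3) fell from 141 ± 49.5 to 58.0 ± 5.16 normalized reads (SD, n = 3; -1.20, adjusted p 0.010), and Sesn3, of the sestrin family, from 2980 ± 429 to 1457 ± 224 (-1.03; adjusted p 0.00543). The sestrins did not move together, since Sesn1 also fell (-0.76; adjusted p 0.0258) and Sesn2 rose (0.94; adjusted p 0.0120, limma). Rragd, which encodes the RagD GTPase, rose from 207 ± 42.4 to 449 ± 132 (1.09; adjusted p 0.0132, limma). Castor1, Sesn3 and Rragd also differed between DMF + GSH and DMF, by 0.90, 0.98 and -1.18 with adjusted p-values of 0.0308, 0.0107 and 0.0144. Sesn1, Sesn2, Sfxn1 and Ctns lie outside the rule for named genes and were chosen after their values were seen.

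Of 15 enzymes that use amino acids, 9 were called higher and 0 lower with a median of 0.39, beside 14.6% and 13.3% of all genes, and with the block 12 were higher and 0 lower, beside 23.7% and 21.4% of all genes. Bcat1, the cytosolic branched-chain aminotransferase that acts on the leucine brought in by LAT1, rose from 903 ± 255 to 1661 ± 203 normalized reads (SD, n = 3; 0.91, adjusted p 0.0150). Asns, the asparagine synthetase, rose by 0.82 (adjusted p 0.0204) and Cad, which starts pyrimidine synthesis from glutamine, by 0.68 (adjusted p 0.0149, limma). With DMF + GSH against DMF, 8 of the 15 were called lower and 0 higher, beside 12.4% and 9.99% of all genes.

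**Figure D4:**
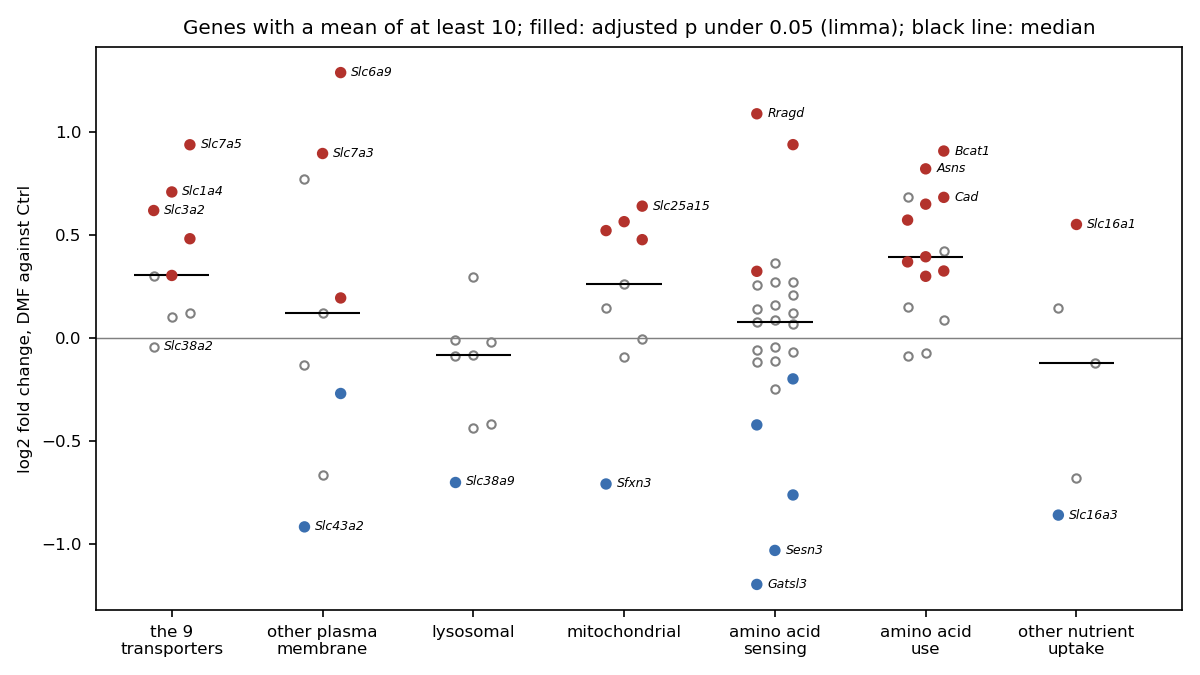
Log2 fold change of DMF against Ctrl (y axis) for the tested genes of 7 gene groups (x axis: the 9 transporters and 6 other lists, without the regulators), with red and blue points for genes with an adjusted p under 0.05 (limma), open points for the others and a black line at the median. The 9 transporters and the enzymes of amino acid use have called genes above 0 only, whereas the other plasma membrane transporters and the sensing genes have them on both sides of 0.

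A list of 8 genes held factors that act on transporter genes and genes of the ATF4 response. Of these, 2 were called higher and 1 lower with a median of 0.39, and 3 of 8 stands beside the 28.0% of all genes called in either direction. With the block 5 were higher and 1 lower, beside 45.0% of all genes. Myc, which drives Slc7a5 and Slc1a5 in activated T cells, rose from 2173 ± 193 to 3986 ± 625 normalized reads (SD, n = 3; 0.87, adjusted p 0.00554). Atf4, the factor of the amino acid response, rose by 0.53 (adjusted p 0.0157), and Hif1a, the hypoxia factor, fell by 0.33 on the log2 scale (adjusted p 0.00743). The kinase gene Eif2ak4 (GCN2) differed by 0.26 (95% interval 0.04 to 0.47; adjusted p 0.0764), Trib3 by 0.57 (-0.04 to 1.19; 0.145) and Chac1, a target of ATF4 that encodes a glutathione-degrading enzyme, by 0.83 (0.01 to 1.64; 0.115). Ddit3 (-0.11, with bounds of -0.47 to 0.26) and Nfe2l2, which encodes NRF2 (-0.08, -0.28 to 0.12), did not pass either. With the replicate block Eif2ak4, Trib3 and Chac1 passed as well (adjusted p 0.0131, 0.00866 and 0.0409, limma). With DMF + GSH against DMF, Myc (-0.93), Atf4 (-0.49) and Chac1 (-1.31) were called lower and Hif1a (0.33) higher, with adjusted p-values of 0.00809, 0.0247, 0.0315 and 0.0121 (limma). Chac1 was low, with 25.7 ± 10.6 normalized reads in Ctrl, 46.9 ± 21.8 with DMF and 17.7 ± 5.78 with DMF + GSH (SD, n = 3).

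Of 5 transporters and receptors for other nutrients, 1 was called higher and 1 lower with a median of -0.12, beside 14.6% and 13.3% of all genes, and with the block 2 were higher and 2 lower, beside 23.7% and 21.4% of all genes. The monocarboxylate transporter Slc16a1 rose from 2021 ± 337 to 2946 ± 310 normalized reads (SD, n = 3; 0.55, adjusted p 0.0145), while its relative Slc16a3, known for lactate export, fell from 2468 ± 555 to 1392 ± 498 (-0.86; adjusted p 0.0163, limma). The glucose transporters Slc2a1 and Slc2a3 differed by -0.12 (95% interval -0.34 to 0.09) and -0.68 (-1.31 to -0.06), with adjusted p-values of 0.360 and 0.0950. The transferrin receptor gene Tfrc (0.15, -0.20 to 0.49) did not pass. With the block, Slc2a3 (adjusted p 0.000740) and Tfrc (adjusted p 0.0327) did.

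The counts of all these lists rest on the same libraries as those of the transporters. Without DMF replicate 1, for example, the enzymes of amino acid use, the mitochondrial carriers, the sensing genes and the regulators had 0 called, and without Ctrl replicate 1 they had 0, 1, 1 and 2, in fits that called 110 and 628 of the 11599 genes. Without Ctrl replicate 2 or DMF replicate 3, 2 enzymes of amino acid use were called, beside 1162 and 953 of all genes.

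The genes whose values ran closest to Slc7a5 over the 9 libraries were Bcat1, Hspd1, Ppa1, Nek6 and Ipo4, out of 9645 genes with a mean of at least 50. Likeness was the root mean square difference between log2 values centred on each gene's mean, and it was 0.0542, 0.0720, 0.0798, 0.0819 and 0.0850 for the 5. Bcat1 had 714 to 1893 normalized reads over the libraries, with group means of 903, 1661 and 926. Its own heavy chain Slc3a2 was at rank 316 with 0.238, Slc7a1 at rank 507 and Slc1a4 at rank 523. The genes closest to Slc3a2 were Ptp4a3, Brix1, Dhps, Rsl24d1 and Pus7l, with 0.0640, 0.0782, 0.0809, 0.0821 and 0.0834. Among the 9 transporters, the nearest to Slc3a2 was Slc7a1 at rank 299 (0.152), followed by Slc7a6 at rank 953 and Slc1a5 at rank 1458. Seen from Slc3a2, its light chain Slc7a5 was at rank 1652 (0.238). All points share the libraries, their depth and their treatment, so the likeness is a description of these 9 libraries.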

How the data were processed

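Gene expression of murine Tc17 cells was measured by RNA-Seq in 9 libraries, whose group, replicate number and batch come from the labels. Single reads were aligned by the authors to GRCm38 with STAR, assigned to genes with featureCounts and modelled in DESeq2 together with the batch. The deposited signal is their read count per gene divided by a factor for each library, and the table's columns with the authors' fold change, p-value and adjusted p were not used. The sources used here do not give whether counting used strand or how reads shared by similar genes were treated. Divided by the value of 1 read, 100% of the values were whole (tolerance 0.01), and the sum of these reads was taken as the depth.

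The test was limma-trend (limma 3.58.1, R 4.3.3). It was run on log2(normalized count + 1), modelled group and batch, and covered the 11599 of 41388 genes that averaged 10 or more, with all 9 libraries in 1 fit and Benjamini-Hochberg adjustment over the genes tested. Fold changes are on this scale, which understates those of low genes. The alternatives were the replicate number as a block, no batch term, other pseudocounts and minimums, TMM and quantile scaling, only the 6 libraries compared, edgeR 4.0.16 and DESeq2 1.42.0 on the recovered reads, and each library left out. After subtraction of the group means, libraries of different groups were correlated over genes. The correlation was 0.447 to 0.578 where they shared a number (9 pairs) and -0.471 to -0.0621 where they did not (18 pairs). Libraries of the same number thus deviated alike. With 3 libraries per group the deviations sum to 0 in each gene, so the negative values follow in part from the positive ones. Number 1 is also batch 1, so for it batch and number cannot be told apart.

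The 9 transporters and the 7 other lists were chosen with earlier results of these data known. All transporters are named in each comparison, from each other list at most the 3 called genes with the largest change, and all tested regulators and other nutrient transporters. A further gene was taken out of the lists and is not reported here. Sequences are RefSeq's, positions and exon lengths are from GENCODE vM21, and the software for tables and plots was Python 3.11.15 (pandas 2.3.3, NumPy 2.4.6, Matplotlib 3.10.9).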

Additional observations from a re-analysis of the deposited data

How the results depend on the processing

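With pseudocounts of 0.5 and 4, no minimum or a minimum mean of 50, TMM or quantile scaling, no batch term, only the 6 libraries compared, edgeR, DESeq2 or the replicate block, DMF against Ctrl kept 4 to 6 of the 9 transporters called and DMF + GSH against DMF 4 to 6, with no change of sign in any of the 9. These fits called 2737 to 5224 and 2111 to 4814 of all genes, the most with the replicate block. The replicate block gave 6 in both. Leaving out 1 library with batch in the model gave 0 to 6 called for DMF against Ctrl, beside 110 to 3789 of all genes. For DMF + GSH against DMF it gave 0 to 5, beside 10 to 3097 of all genes. With the replicate block, leaving out 1 library gave 6 to 7 and 5 to 6, beside 4102 to 5466 and 3581 to 4873 of all genes. DMF + GSH against Ctrl had 0 in each fit. At the study's threshold DMF against Ctrl gave 1 with no minimum (beside 451 of 26629 genes) or with the block (789 of 11599), and 0 in the other fits with no library left out. With 1 left out it gave 0 to 2, beside 2 to 680 of all genes with batch in the model and 561 to 865 with the block. DMF + GSH against DMF gave 1 with no minimum (273 genes) or with the block (660), and 0 to 1 with 1 library left out, beside 0 to 480 genes with batch in the model and 404 to 728 with the block. Some values near 0 changed sign when a library was left out. For DMF against Ctrl these were Slc38a2 (-0.10 to 0.0093 over all such fits) and Slc43a1 (-0.046 to 0.25), and for DMF + GSH against DMF Slc38a2 (-0.040 to 0.074). For DMF + GSH against Ctrl they were Slc7a5 (-0.20 to 0.25), Slc3a2 (-0.14 to 0.14), Slc38a1 (-0.032 to 0.062), Slc38a2 (-0.064 to 0.031), Slc7a1 (-0.070 to 0.13), Slc7a6 (-0.17 to 0.042) and Slc43a1 (-0.27 to 0.012). Why calls were lost without single libraries was not tested. The 3 libraries in each group limit the precision, and with batch in the model the 95% interval of Slc1a4 for DMF against Ctrl ran from 0.25 to 1.17. Counting error is largest for Slc43a1, with as few as 92 reads in a library.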
